A study of Mus musculus with 18 samples.

Results

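The 10 genes C1qa, C1qb, C1qc, Axl, Mertk, Spic, Slc40a1, Hmox1, Cd163 and Vcam1 are known from macrophages that clear dying cells and from the red pulp macrophages of the spleen. They were taken by symbol, as probe sets annotated with a single gene, and each had 1 such probe set among the 19752 genes measured. Levels were read on 18 Affymetrix Mouse Gene 1.0 ST arrays, which are 1-colour arrays whose probe sets cover whole transcripts, with 2 arrays for each of 9 sorted immune populations. All arrays came from male C57BL/6 mice aged 6 weeks, taken 2 h after 10000 U of interferon gamma (IFNg) under the skin, so every population shared the treatment and no untreated array was analysed here. Macrophages (MF) were F4/80+ ICAM2+ cells of the peritoneal cavity. From spleen came dendritic cells (DC, CD11c+ MHC class II+ Flt3+), granulocytes (GN, Ly6G+) and 6 lymphoid populations. These were NK cells (NK, NK1.1+ TCRB-), NK1.1+ T cells (NKT, NK1.1+ TCRB+), T4 (CD4+ TCRB+), T8 (CD8+ TCRB+), Tgd (TCRgd+ TCRB-, gamma delta T cells) and Treg (CD4+ TCRB+ CD25+). Red pulp macrophages themselves were not among the sorted populations, and MF came from another tissue than the rest, so tissue and cell type cannot be told apart for MF.

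Clearance of apoptotic cells, or efferocytosis, starts with molecules that mark the dying cell. C1q, the recognition protein of the classical complement pathway, is built from the chains C1qa, C1qb and C1qc and binds such cells. Axl and Mertk are receptor tyrosine kinases of the TAM family, which see exposed phosphatidylserine through the bridging proteins Gas6 and protein S. Red pulp macrophages take up old red blood cells, break down their haem and return the iron to the blood. Spi-C, the product of Spic, is a transcription factor needed for these macrophages, and Vcam1 is an adhesion molecule that they carry. Hmox1 (haem oxygenase 1) opens the haem ring, Slc40a1 (ferroportin) exports iron from cells, and Cd163 is a receptor for haptoglobin-bound haemoglobin.

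The 3 C1q genes lie side by side on mouse chromosome 4, with C1qb and C1qa on either side of C1qc in the RefSeq order of GRCm38.p6. The 250 bases before the RefSeq start of 2 of them are shown because the chains moved together over the populations, as described below. Both windows are on the minus strand of GRCm38.p6, C1qb at chr4:136886201-136886450 and C1qc at chr4:136892915-136893164. They are written 5′ to 3′, and capitals mark matches on either strand to GAGGAA, a core bound by PU.1 and Spi-C, and to TGACNNNGC and TGAGNNNGC, cores of the antioxidant response element.
C1qb: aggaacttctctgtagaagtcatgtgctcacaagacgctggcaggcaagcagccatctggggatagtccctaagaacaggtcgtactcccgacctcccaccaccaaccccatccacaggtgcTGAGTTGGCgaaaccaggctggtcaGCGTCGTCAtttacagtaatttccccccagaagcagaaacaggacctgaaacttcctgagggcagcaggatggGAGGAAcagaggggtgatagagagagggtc
C1qc: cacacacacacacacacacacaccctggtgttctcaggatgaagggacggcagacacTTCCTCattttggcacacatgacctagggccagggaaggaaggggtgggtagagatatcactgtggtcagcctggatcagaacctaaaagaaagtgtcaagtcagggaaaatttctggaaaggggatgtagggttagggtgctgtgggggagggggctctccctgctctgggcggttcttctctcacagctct
C1qb held all 3 motifs, with GAGGAA beginning 30 bases before the start, and C1qc held GAGGAA on the opposite strand. RefSeq promoters were at hand for 6 of the 10 genes. Axl held GAGGAA too, while Mertk, Spic and Cd163 had none of these letters in their windows. Over all 32851 RefSeq promoters, counted over 250 bases before and 50 after the start, 28.3% held GAGGAA, 12.4% TGACNNNGC and 17.6% TGAGNNNGC. A match describes the letters and not a bound site.

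Levels are log2 intensities, and the median gene lay at 7.19 over all arrays, with array medians between 7.11 and 7.24. The gates were visible in the RNA, since 10 of 10 genes of the gate antigens had their highest mean in a population gated on them. Lineage markers followed, with 13 of 13 peritoneal macrophage markers higher in MF, 14 of 14 dendritic cell markers higher in DC and 15 of 15 granulocyte markers higher in GN than in lymphoid cells. Of all genes 8.23%, 6.23% and 7.62% were higher in MF, DC and GN. One array stood apart in a way that bears on these genes. DC replicate 2 carried more granulocyte transcripts than DC replicate 1, with a summed intensity of 15 granulocyte markers of 31565 against 9083, and both lay above the 12 lymphoid arrays (969 to 2576). DC levels of the 10 genes are therefore given by replicate, and their differences in DC also without replicate 2. For the gene lists, some of the counts and medians in DC are given without replicate 2 as well. All 15 pathway genes named below as higher or lower in DC passed without replicate 2 too.

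A gene passed a comparison with a Benjamini-Hochberg adjusted p of limma under 0.05 over all genes and a difference of at least 2-fold, which is 1 on the log2 scale. All 10 genes differed among the 9 populations by the moderated F test, where 39.0% of all genes passed. Their population means spanned between 1.10 (Cd163) and 6.29 (C1qc). In MF, 6 of the 10 were higher than the mean of the lymphoid populations and 0 lower, against 8.23% and 4.78% of all genes, with a median difference of 2.56 for the 10 genes and -0.08 for all genes. In DC 9 were higher and 0 lower, against 6.23% and 3.43% of all genes, with medians of 2.66 and -0.08, and the same 9 passed without DC replicate 2. In GN 3 were higher and 0 lower, against 7.62% and 12.5% of all genes, with medians of 0.74 and 0.12. The GN count was 5 under quantile normalization and 2 with 50 added to the intensities. In cells sorted in bulk, a difference of this kind cannot separate more cells of a type from more RNA per cell. Nothing in the labels says that the 2 arrays of a population came from separate animals, so the p-values measure the spread between arrays, which may be technical.

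**Figure D1:**
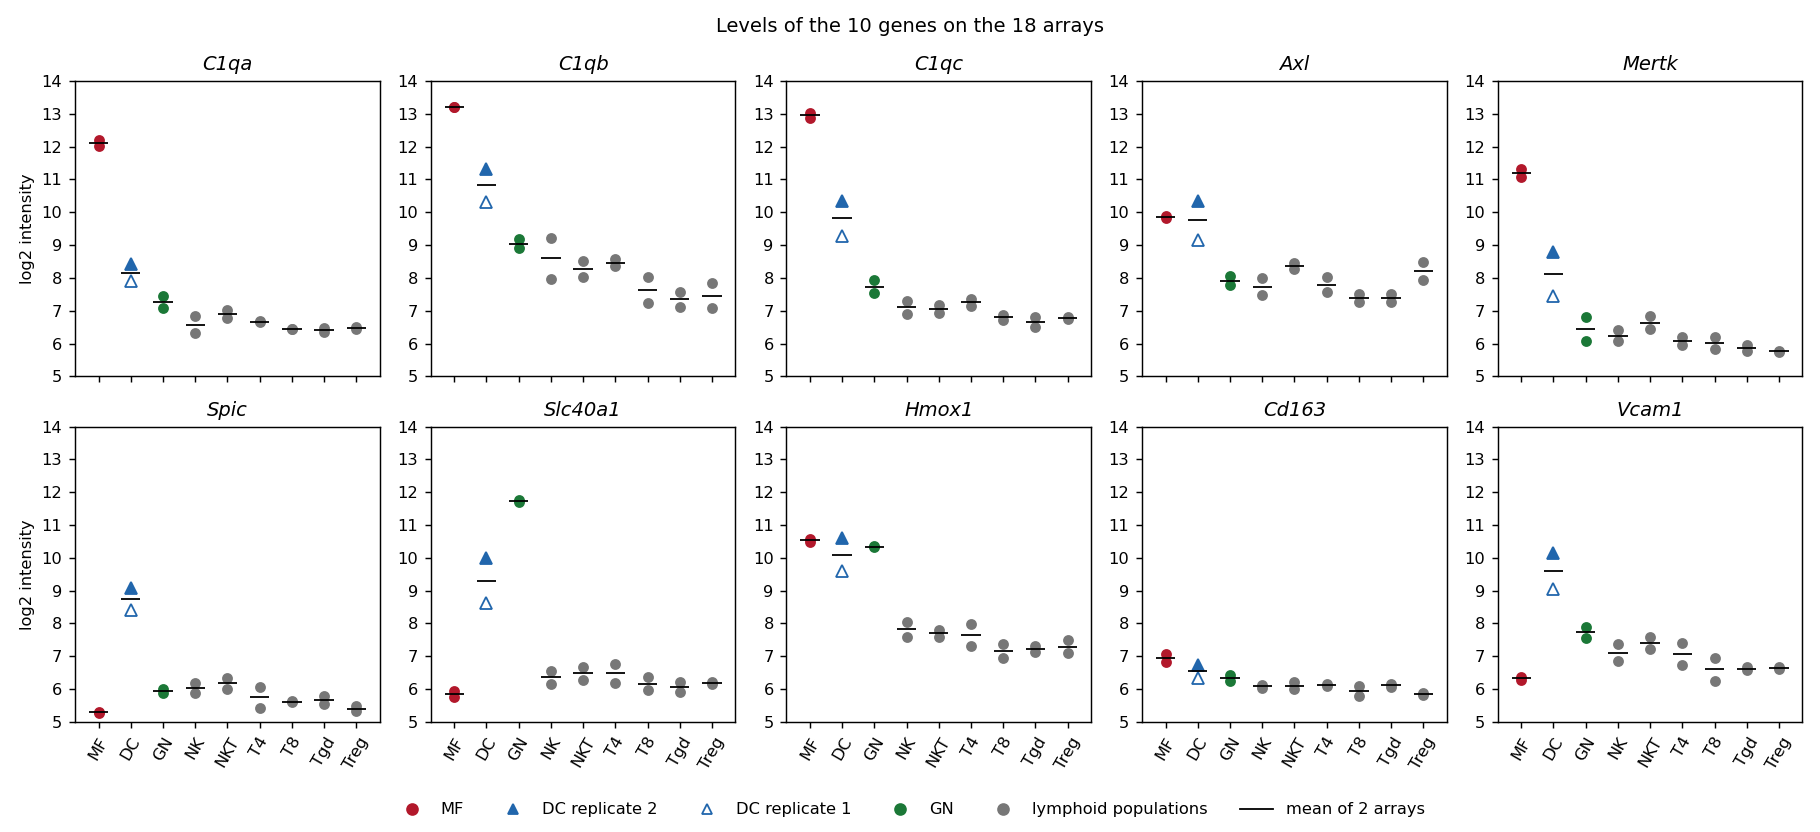
Log2 intensity (y axis) of each of the 10 genes on every array, by population (x axis). Points are single arrays, black lines are means of 2 arrays, and triangles are DC arrays, filled for replicate 2 and open for replicate 1. C1q genes and Mertk are highest in MF, Spic and Vcam1 in DC and Slc40a1 in GN, and the lymphoid arrays lie below MF, DC and GN for Hmox1.

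**Figure D2:**
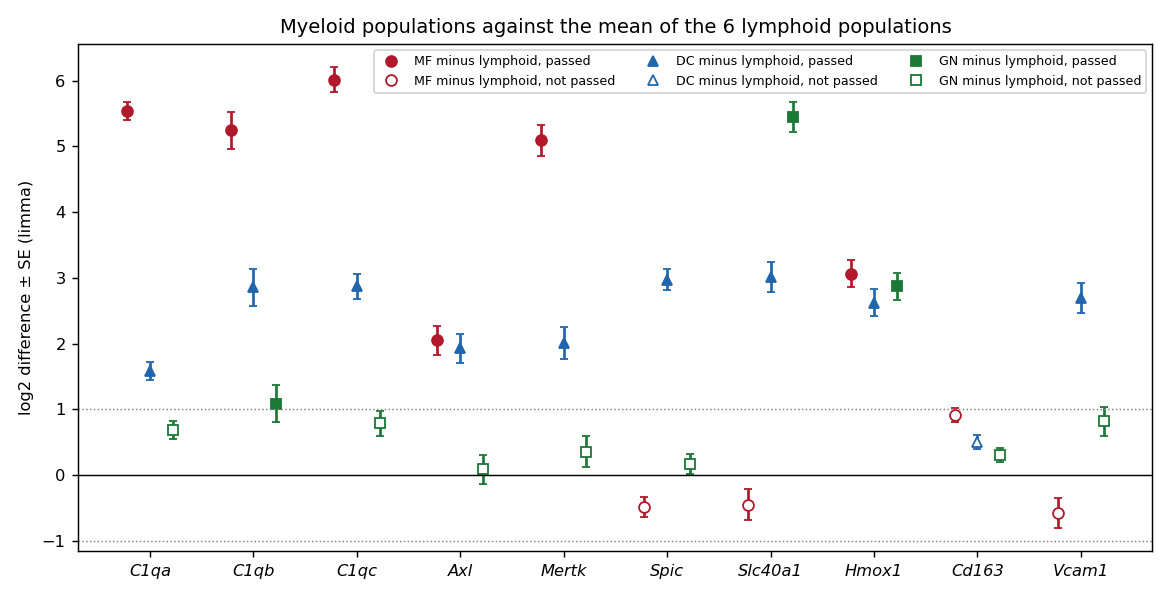
Log2 difference of MF (circles), DC (triangles) and GN (squares) from the mean of the 6 lymphoid populations (y axis) for each gene (x axis), with the standard error of limma as bars. Filled symbols passed the test and dotted lines mark 2-fold. DC symbols are filled for 9 genes, MF symbols for 6 and GN symbols for 3.

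The 3 C1q chains had the same order over the myeloid populations, MF above DC above GN, and no array of one overlapped the next. C1qa (probe set 10517517) read 12.03 and 12.21 on the MF arrays, 8.43 and 7.89 on DC replicates 2 and 1, and 7.07 and 7.45 on the GN arrays, against 6.32 to 7.01 (median 6.49) on the lymphoid arrays. C1qb (probe set 10517508) read 13.20 on both MF arrays, 11.32 and 10.32 in DC and 8.90 and 9.19 in GN, against 7.09 to 9.22 (median 7.99) on lymphoid arrays. C1qc (probe set 10517513) read 12.88 and 13.04 in MF, 10.36 and 9.27 in DC and 7.53 and 7.93 in GN, against 6.51 to 7.36 (median 6.89) on lymphoid arrays. Every MF and DC array thus lay above every lymphoid array for the 3 chains, and the GN arrays overlapped the lymphoid ones only for C1qb.

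In MF the chains were higher than in lymphoid cells by 5.54 ± 0.14 (SE, adjusted p = 7.24e-16) for C1qa, 5.24 ± 0.28 (adjusted p = 3.01e-11) for C1qb and 6.02 ± 0.19 (adjusted p = 1.76e-14) for C1qc. In DC they were higher by 1.58 ± 0.14, 2.86 ± 0.28 and 2.87 ± 0.19, and without DC replicate 2 by 1.32, 2.36 and 2.33, all of which passed. MF exceeded DC by 3.96, 2.39 and 3.15, so that each chain differed between these 2 phagocyte populations as well. GN was higher than lymphoid cells for C1qb alone, by 1.09 ± 0.28 (adjusted p = 0.00304), and this call was lost without GN replicate 2 (0.94, adjusted p = 0.0613) and without NK replicate 2 (0.98, under 2-fold). C1qa and C1qc in GN stood at 0.68 and 0.79, under 2-fold. Over the 18 arrays the chains correlated with one another at r = 0.95 to 0.98, a description in which the arrays share their populations.

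Around C1q, the complement list held 21 measured genes, of which 12 were higher and 1 lower in MF than in lymphoid cells, with a median of 2.28 against -0.08 for all genes. In DC 5 were higher and 1 lower, with a median of 0.28 against -0.08 (0.13 without DC replicate 2, with the same counts). Over all genes, 8.23% were higher and 4.78% lower in MF, and 6.23% and 3.43% in DC. Vsig4, which binds C3 fragments on resident macrophages, was higher in MF by 7.44 ± 0.12, and C3ar1, the receptor for C3a, by 6.41 ± 0.17. Cfp (properdin), which stabilises the alternative pathway convertase, was higher in DC by 3.51 ± 0.10, as was Itgam, a chain of complement receptor 3, by 2.56 ± 0.16. Neither was highest in DC, since MF minus DC was 1.22 for Cfp and 2.70 for Itgam. DC minus GN was 0.02 for Cfp and -2.24 for Itgam. The NK arrays read 11.15 and 10.88 for Itgam, above DC replicates 2 and 1 at 10.31 and 9.57, which the lymphoid mean does not show. Cd55, which speeds the decay of convertases, was lower in MF at -2.71 ± 0.11 and in DC at -2.57 ± 0.11.

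Axl and Mertk were both higher in MF and DC than in lymphoid cells, and they differed in the level of MF against DC. Mertk (probe set 10475890) read 11.06 and 11.32 in MF, 8.79 and 7.44 on DC replicates 2 and 1, and 6.09 and 6.82 in GN, against 5.74 to 6.83 (median 6.01) on lymphoid arrays. Axl (probe set 10561104) read 9.83 and 9.90 in MF, 10.35 and 9.15 on DC replicates 2 and 1, and 7.77 and 8.05 in GN, against 7.27 to 8.48 (median 7.75) on lymphoid arrays. For Mertk the MF arrays were clear of all others and the DC arrays stood between them and the rest. For Axl the DC arrays lay on either side of the MF arrays, and the GN arrays were inside the lymphoid range.

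Mertk was higher in MF than in lymphoid cells by 5.09 ± 0.24 (adjusted p = 3.61e-12) and in DC by 2.01 ± 0.24 (adjusted p = 1.65e-06), or 1.34 without DC replicate 2. MF exceeded DC by 3.08 ± 0.31 (adjusted p = 2.98e-07). Axl was higher by 2.05 ± 0.22 (adjusted p = 3.72e-07) in MF and by 1.93 ± 0.22 (adjusted p = 1.1e-06) in DC, or 1.33 without DC replicate 2. MF minus DC for Axl was 0.12 ± 0.29 (adjusted p = 0.826), and 0.72 without DC replicate 2, so no difference of 2-fold was found. DC exceeded GN by 1.84 for Axl and by 1.66 for Mertk. Without DC replicate 2 the Mertk difference fell under 2-fold, at 0.98 (adjusted p = 0.00405), whereas Axl stayed at 1.24. In GN Axl stood at 0.09 ± 0.22 and Mertk at 0.35 ± 0.24 above lymphoid cells, and neither passed.

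Other genes of this system were read for comparison. Tyro3, the remaining TAM receptor, stood at -0.47 in MF and -0.48 in DC, both under 2-fold. Pros1, the gene of protein S, read 11.73 and 11.85 in MF and was higher there by 5.32 ± 0.11, and in DC by 1.57 ± 0.11. The DC arrays, at 8.15 and 7.92 on replicates 2 and 1, overlapped the Treg arrays at 7.82 and 8.02 for Pros1. Gas6 read 6.61 to 7.07 on the 18 arrays, at 0.29 in MF and -0.07 in DC relative to lymphoid cells, without passing. Mfge8, which bridges phosphatidylserine to integrins, was higher in MF by 1.45 ± 0.10 and stood at -0.69 in DC, under 2-fold. Of the 42 measured efferocytosis genes 16 were higher and 1 lower in MF, with a median of 0.45, and 13 were higher and 3 lower in DC, with a median of 0.33. Without DC replicate 2 these were 10 higher and 4 lower. The shares over all genes were again 8.23% and 4.78% in MF and 6.23% and 3.43% in DC, with a median of -0.08 in both. The scavenger receptor Cd36 was higher in MF by 6.62 ± 0.15 and in DC by 4.38 ± 0.15, Thbs1 (thrombospondin 1) in MF by 6.39 ± 0.32, and the crosslinking enzyme Tgm2 in DC by 4.57 ± 0.11. S1pr1, a receptor for sphingosine phosphate, was lower in MF at -2.36 and in DC at -4.31, and the lipid exporter Abca1 was lower in DC at -1.17. For Abca1, DC replicate 1 read 7.145, while replicate 2 at 8.234 lay among the T4 (8.226 and 8.295) and Treg arrays (8.242 and 8.181).

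Spic was high in DC alone among the populations, at 9.08 on replicate 2 and 8.42 on replicate 1. The MF arrays read 5.31 and 5.27 and the GN arrays 5.88 and 6.02, against 5.32 to 6.34 (median 5.71) on lymphoid arrays (probe set 10371662). Both DC arrays were clear of all 16 others, and the MF arrays lay just below the lymphoid range. DC exceeded the lymphoid mean by 2.98 ± 0.16 (adjusted p = 2.81e-11), or 2.65 without replicate 2, and exceeded GN by 2.80 ± 0.20. MF was 3.46 ± 0.20 below DC (adjusted p = 2.52e-10) and stood at -0.48 ± 0.16 against lymphoid cells, under 2-fold. GN stood at 0.17 ± 0.16 against lymphoid cells and did not pass.

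Vcam1 (probe set 10501608) followed a like order, at 10.16 and 9.04 on DC replicates 2 and 1, 7.57 and 7.88 in GN, and 6.38 and 6.28 in MF, against 6.26 to 7.57 (median 6.80) on lymphoid arrays. Again both DC arrays were clear of the rest and the MF arrays were at the low end of the lymphoid range. DC exceeded lymphoid cells by 2.69 ± 0.23 (adjusted p = 1.97e-08), or 2.14 without replicate 2, and GN by 1.87 ± 0.30. MF was 3.27 ± 0.30 below DC and 1.40 ± 0.30 below GN (adjusted p = 0.000616), while GN stood at 0.82 ± 0.23 above lymphoid cells, under 2-fold. Spic and Vcam1 correlated over the 18 arrays at r = 0.95, as a description.

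Transcription factors of macrophage identity were read beside Spic. Of 22 measured, 10 were higher and 2 lower in MF (median 0.85) and 9 were higher and 3 lower in DC (median 0.82), or 10 and 3 without DC replicate 2, against 8.23% and 4.78% of all genes in MF and 6.23% and 3.43% in DC (median -0.08 in both). Spi1 (PU.1), the master factor of myeloid cells, was higher by 5.36 ± 0.14 in MF and 5.56 ± 0.14 in DC. Tfec, a MiT family factor, was higher by 5.06 ± 0.22 in MF and 2.79 ± 0.22 in DC, or 2.15 without DC replicate 2. Bach2, a repressor with roles in lymphocytes, was lower in MF at -2.68 and in DC at -2.39. Runx3 was lower in MF at -2.37, and Id3, an inhibitor of E proteins, in DC at -1.62. Both DC arrays read 6.22 for Id3, between the NK arrays at 6.17 and 6.45, so DC was not below NK.

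Slc40a1, the iron exporter, was highest in GN. It read (probe set 10354374) 11.72 and 11.77 on the GN arrays, 9.98 and 8.62 on DC replicates 2 and 1, and 5.75 and 5.95 on the MF arrays, against 5.91 to 6.78 (median 6.22) on lymphoid arrays. The GN arrays were clear of DC, the DC arrays were clear of the rest, and MF lay at or below the lower end of the lymphoid range. GN exceeded lymphoid cells by 5.45 ± 0.23 (adjusted p = 9.17e-13) and DC did so by 3.01 ± 0.23 (adjusted p = 6.24e-09), or 2.33 without DC replicate 2. DC was below GN by 2.44 ± 0.30, and MF below GN by 5.89 ± 0.30 and below DC by 3.46 ± 0.30. Against lymphoid cells MF stood at -0.45 ± 0.23 (adjusted p = 0.128).

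Hmox1 (probe set 10572897) was high in all 3 myeloid populations. It read 10.58 and 10.49 in MF, 10.61 and 9.59 on DC replicates 2 and 1, and 10.36 and 10.32 in GN, against 6.96 to 8.05 (median 7.43) on lymphoid arrays. No myeloid array overlapped the lymphoid ones, and the DC arrays lay on either side of MF and GN. The differences from lymphoid cells were 3.07 ± 0.20 in MF, 2.62 ± 0.20 in DC (2.11 without replicate 2) and 2.87 ± 0.20 in GN, with adjusted p of 5.81e-10, 7.3e-09 and 9.52e-10. Among the myeloid populations none of the differences passed, with MF minus DC at 0.44 ± 0.27, DC minus GN at -0.25 ± 0.27 and MF minus GN at 0.20 ± 0.27. Without DC replicate 2, MF minus DC stood at 0.95 and DC minus GN at -0.76, near but under 2-fold.

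Cd163 (probe set 10541644) varied least of the 10 genes. It read 6.83 and 7.07 in MF, 6.74 and 6.34 on DC replicates 2 and 1, and 6.26 and 6.44 in GN, against 5.80 to 6.20 (median 6.08) on lymphoid arrays. MF was clear of the lymphoid arrays, and so were the DC and GN arrays by a small margin. Its differences from lymphoid cells were 0.91 ± 0.11 in MF (adjusted p = 9.61e-07), 0.50 ± 0.11 in DC (0.30 without replicate 2) and 0.31 ± 0.11 in GN, each under 2-fold. MF passed without MF replicate 2, at 1.04. MF minus DC was 0.41 ± 0.14, or 0.61 without DC replicate 2, and DC minus GN was 0.19 ± 0.14, or -0.01 without it. The highest population mean of Cd163, 6.95 in MF, lay below 7.19, and RMA compresses differences of such dim genes, so its folds may understate the change.

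Of 35 other iron and haem genes measured, 11 were higher and 0 lower in MF (median 0.57), 9 higher and 0 lower in DC (median 0.26, or 8 and 0 without DC replicate 2), and 9 higher and 3 lower in GN (median 0.31). Of all genes, 8.23% were higher and 4.78% lower in MF (median -0.08), 6.23% and 3.43% in DC (median -0.08), and 7.62% and 12.5% in GN (median 0.12). Bach1, the haem-sensing repressor of Hmox1, was higher in MF by 2.39 ± 0.09, in DC by 2.00 ± 0.09 and in GN by 3.09 ± 0.09. Nfe2l2 (NRF2), which activates Hmox1, was higher in GN by 1.59 ± 0.09 and stood under 2-fold in MF (0.92) and DC (0.32). Blvrb, a biliverdin reductase that acts after haem oxygenase, was higher in MF by 3.29 ± 0.13 and under 2-fold in DC (0.93) and GN (0.65). The ferritin light chain gene Ftl1 was higher by 1.36 ± 0.08 in MF and 1.30 ± 0.08 in GN and stood at 0.84 in DC, and the heavy chain gene Fth1 stood at 0.44, 0.42 and 0.61 in MF, DC and GN, under 2-fold. Tfrc, the transferrin receptor, was lower in GN at -1.75 ± 0.12 and differed by under 2-fold in MF (-0.03) and DC (0.26). Trf (transferrin) and the haemopexin receptor Lrp1 led the list in MF, higher by 5.03 ± 0.19 and 4.56 ± 0.13. In DC the largest differences were those of Lcn2 and Ltf, higher by 4.93 ± 0.37 and 2.97 ± 0.38, which are granule proteins of neutrophils and also stand on the granulocyte list. Without DC replicate 2 they stood at 3.99 and 1.63, and both passed, but Ltf was then no longer among the 2 largest.

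Between the myeloid populations, 4 of the 10 genes were higher and 3 lower in MF than in DC (5.89% and 4.97% of all genes). The higher ones were the 3 C1q chains and Mertk, and the lower ones Spic, Slc40a1 and Vcam1. Without DC replicate 2 the same 7 passed, at 4.23, 2.88 and 3.69 for C1qa, C1qb and C1qc, 3.75 for Mertk, -3.13 for Spic, -2.77 for Slc40a1 and -2.71 for Vcam1. Between DC and GN 6 were higher and 1 lower in DC (11.1% and 5.77% of all genes), the higher ones being C1qb, C1qc, Axl, Mertk, Spic and Vcam1 and the lower one Slc40a1. Without DC replicate 2 they passed at 1.27 for C1qb, 1.53 for C1qc, 1.24 for Axl, 2.47 for Spic, 1.32 for Vcam1 and -3.12 for Slc40a1, and Mertk did not pass. In MF against GN 5 were higher and 2 lower (14.1% and 6.59% of all genes), with C1qa, C1qb, C1qc, Axl and Mertk higher and Slc40a1 and Vcam1 lower. C1qa in DC stood 0.90 ± 0.18 above GN, under 2-fold. It passed without DC replicate 1 (1.17) or without GN replicate 2 (1.09), and stood at 0.63 without DC replicate 2. These comparisons share arrays with one another.

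All 10 genes read higher on DC replicate 2 than on DC replicate 1, and 7 of them by at least 2-fold, while 0.714% of all genes did so. With 2 single arrays there is no test of this. Slc40a1 differed by 1.36, Mertk by 1.35, Axl by 1.21, Vcam1 by 1.11, C1qc by 1.09, Hmox1 by 1.02 and C1qb by 1.00. Below 2-fold lay Spic at 0.66, C1qa at 0.54 and Cd163 at 0.40. The median of the 10 genes was 1.06, against -0.01 for all genes. For 9 genes the DC difference was larger than between the 2 arrays of any of the other 8 populations. The margin was small for C1qa (0.535 against 0.522 in NK) and Spic (0.660 against 0.629 in T4). The exception among the 10 was C1qb, which differed by 1.26 between the NK arrays.

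**Figure D3:**
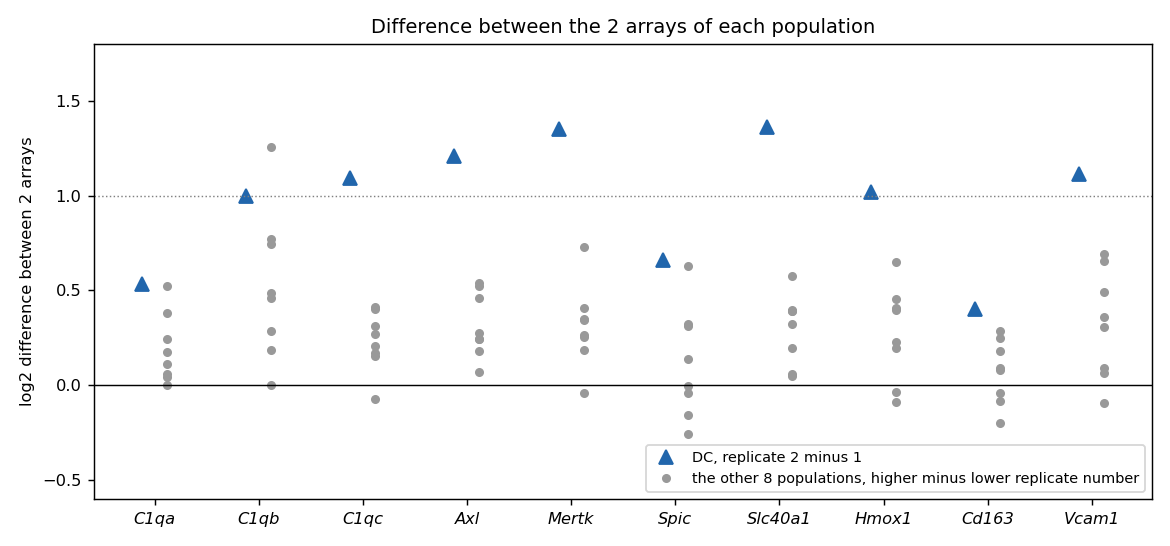
Log2 difference between the 2 arrays of a population (y axis) for each gene (x axis). Triangles are DC replicate 2 minus 1, grey points the other 8 populations with the higher minus the lower replicate number, and the dotted line marks 2-fold. Triangles lie above the grey points for every gene except C1qb, by a small margin for C1qa and Spic.

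Smaller differences of the same sign were seen elsewhere. On the array with the higher replicate number all 10 genes read higher in NK, 9 in each of GN, NKT and T4, 8 in T8 and Tgd, and 7 in MF and Treg, while between 45.8% and 57.0% of all genes did. Their medians in these 8 populations lay between 0.06 (Treg) and 0.43 (NK).

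Marker lists of other cell types moved with the 10 genes between the DC arrays. Of 15 granulocyte markers 14 were at least 2-fold higher on replicate 2 (median 1.70), led by Ltf at 2.67 and Ly6g, the gate antigen of GN, at 2.63. Of 8 monocyte markers 5 were at least 2-fold higher (median 1.13), with Fn1 at 1.86 and F13a1 at 1.84. Below 2-fold lay Ace at 0.91, Ms4a6c at 0.04 and Cx3cr1 at 0.03. Of 11 tissue macrophage markers 2 were at least 2-fold higher (median 0.77), Mrc1 at 1.56 and Fcgr1 at 1.22. On this list Cd68 stood at 0.11, Tlr7 at 0.003 and Adgre1 at -0.11. Its other markers lay between 0.52 (Tlr4) and 0.98 (Cd14). Of 14 further markers of red pulp and marginal zone macrophages, 1 was at least 2-fold higher (median 0.43). Among them Fcna stood at 1.21, Cd5l at 0.97, Siglec1 at 0.90 and Epb41l3 at 0.80. Below 0 lay Marco at -0.155, Adgre1, the gene of F4/80, at -0.11, Cd209b at -0.08 and Sirpa at -0.05. The rest of this list lay between 0.11 (Cd68) and 0.77 (Csf1r). The platelet chemokine Ppbp was 3.43 higher on replicate 2, in a red cell and platelet list of 8 with a median of 0.63. The 14 dendritic cell markers had a median of -0.15, 13 peritoneal macrophage markers -0.02, 16 stromal and endothelial markers -0.04, 9 B cell markers -0.07, 6 plasmacytoid dendritic cell markers -0.001 and 10 eosinophil and mast cell markers -0.04. Which of the cells behind these lists contributed to the 10 genes in DC was not tested.

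**Figure D4:**
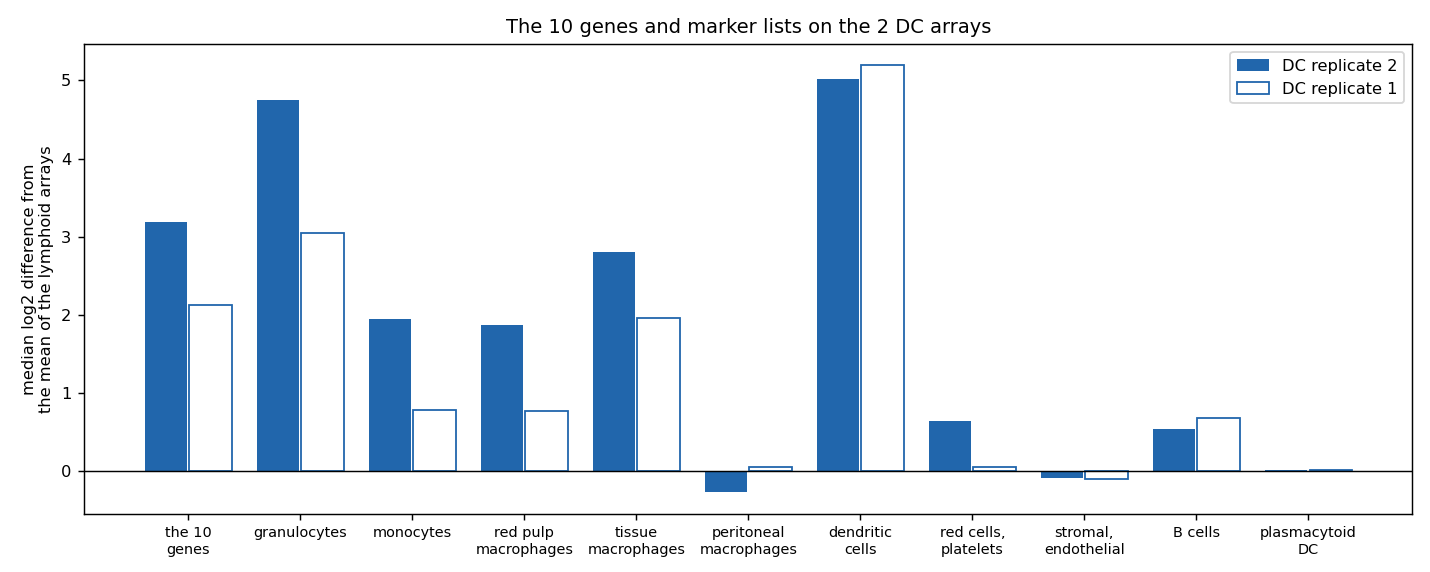
Median log2 difference from the mean of the lymphoid arrays (y axis) of the 10 genes and of 10 marker lists (x axis), on DC replicate 2 (filled bars) and DC replicate 1 (open bars). The 10 genes stood at 3.19 on replicate 2 and 2.13 on replicate 1, and granulocyte markers at 4.75 and 3.04, while dendritic cell markers stood at 5.02 and 5.19.

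Levels of these lists and of the 10 genes in DC were also set beside GN and MF. For each gene the lymphoid median intensity was subtracted from DC and GN, and the DC remainder was expressed as a share of the GN one. The 15 granulocyte markers reached 14.6% to 62.9% of GN on DC replicate 2 (median 27.7%) and -2.7% to 17.5% on replicate 1 (median 5.6%). Slc40a1 reached 28.0% on replicate 2 and 9.5% on replicate 1, and Hmox1 123.0% and 52.9%. The part of granulocyte transcripts in either gene was not tested. C1qa, C1qb, C1qc, Axl, Mertk, Spic and Vcam1 read higher on both DC arrays than on either GN array. Peritoneal macrophage markers stood a median of -0.27 and 0.06 from the lymphoid mean on DC replicates 2 and 1. Of these 13 markers, 3 were higher and 2 lower in DC than in lymphoid cells, where 6.23% and 3.43% of all genes were. Their median difference was -0.11, or 0.06 without DC replicate 2. Vsig4 read 4.37 and 4.71 in DC, against 12.13 and 12.05 on the MF arrays. Serpinb2 read 7.41 and 7.74 in DC and averaged 5.46 in lymphoid cells, and Lyz1 read 10.23 and 10.11 against 7.56. Red pulp markers were higher than in lymphoid cells for 9 of 14 in DC (median 1.32), or 6 of 14 without DC replicate 2 (median 0.78), where 6.23% of all genes were higher. In GN they were higher for 6 of 14 too (median 0.52), where 7.62% of all genes were. Their summed intensity was 15225 and 13254 on DC replicates 2 and 1 and 12093 to 12957 in GN, against 1364 to 2014 on lymphoid arrays. This sum is weighted toward its brightest genes, Sirpa and Cd68, and does not measure red pulp macrophage RNA alone. Sirpa read 12.08 and 12.14 on DC replicates 2 and 1 and averaged 12.19 in GN, and Cd68 read 11.86 and 11.75 against 11.35. Fcna read 9.03 and 7.82 in DC and averaged 7.51 in GN and 7.05 in lymphoid cells. Marco read 6.71 and 6.87 in DC and averaged 7.07 in GN and 6.74 in lymphoid cells. Treml4, of the same list, read 10.67 and 10.10 in DC and averaged 10.37 in GN and 7.07 in lymphoid cells. MF was higher for 11 of these 14 markers (median 1.97), Cd5l and Fcna among them, where 8.23% of all genes were higher.

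Among the 6 lymphoid populations the means spanned between 0.27 (Cd163) and 1.25 (C1qb). In the fit without replicate numbers, C1qb was the member of the 10 that passed the F test over these populations, where 9.95% of all genes passed. Its means ran from 7.34 in Tgd to 8.59 in NK (range 1.25, adjusted p = 0.04). The NK arrays themselves read 7.97 and 9.22, and the call did not hold under many of the alternatives described in the closing section. Axl ranged over 0.98 (adjusted p = 0.0525), highest in NKT at 8.37 and lowest in Tgd at 7.40, and Spic over 0.77 (adjusted p = 0.0597). When the replicate number was added to the fit as a block, Axl, Mertk and Vcam1 passed too, with ranges of 1.43, 1.40 and 1.25. NKT had the highest lymphoid mean for C1qa, Axl, Mertk, Spic and Vcam1. For Axl, Spic and Vcam1 its arrays overlapped those of the next lymphoid population, and for C1qa those of NK. NK had the highest lymphoid mean for C1qb and Hmox1, and T4 for C1qc, Slc40a1 and Cd163, so that T8, Tgd and Treg had it for 0 of the 10. For each of these NK and T4 genes the arrays overlapped those of the next lymphoid population. The gap between the means was 0.002 for Slc40a1 and 0.009 for Cd163.

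The genes most like each member, by Pearson r of log2 levels over the 18 arrays among 7365 named candidates, fell along the same lines. These values describe arrays that share their populations, and the genes were picked for their likeness, so a shared order follows from the choice. C1qa was most like Lrp1 (r = 0.99), Myof and Msr1, and Mertk most like Fcna (r = 0.98), Lrp1 and Igf1. Igf1, a growth factor, was also the gene most like C1qb (r = 0.97) and C1qc (r = 0.99). Lrp1, picked in this way, read 11.71 and 11.84 in MF, 9.28 and 8.52 on DC replicates 2 and 1, and 7.82 and 7.83 in GN. Slc40a1 was most like Il1f9 (r = 0.99), S100a9 and Mmp8, the last 2 of which stand on the granulocyte list. Spic was most like Gcsam (r = 0.97), Arhgap42 and Apol7c, and Vcam1 most like C6 (r = 0.97), a gene of terminal complement, then Gfra2 and Met. Gcsam read 10.39 and 9.98 on DC replicates 2 and 1 and between 5.71 and 6.58 elsewhere. Hmox1 was most like Creg1 (r = 0.98), Tgfbi and Il18, Axl most like Lima1 (r = 0.92), Ctsb and Mrc1, and Cd163 most like Jup (r = 0.94), Rhobtb1 and Vcan.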

How the data were processed

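Immune cells were stained, sorted on a FACSAria directly into TriZol and profiled on arrays, per the labels' protocols. The deposited values were linear intensity values, 1 per probe set and array, which the authors made by RMA, a method that corrects background, normalizes and sums up the probes of a set, in Affymetrix Power Tools, per the submitters' processing notes. Versions, and whether all arrays were normalized together, are not given in the sources used here.

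Log2 was taken of all 24922 probe sets. Genes were named from 21425 probe sets with 1 symbol (GEO platform annotation, updated by Entrez number, 21347 found in RefSeq GRCm38.p6), leaving out 1399 with several and 2098 not listed. For 921 genes with several probe sets the brightest was used, which left 19752 genes. A limma fit (limma 3.58.1 under R 4.3.3, moderated with a trend) was made on all 18 arrays with 1 mean per population, two-sided, with 9 residual and 7.69 prior degrees of freedom. Precision is limited by 2 arrays per population. No 2 arrays were identical. Within populations arrays correlated at 0.9901 to 0.996, and the DC arrays at 0.9911.

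Named besides the 10 genes are the 2 pathway genes per list with the largest differences each way in MF and in DC, 10 pathway genes whatever their values, the 3 most like genes per member, and the 2 markers per list that differed most between the DC arrays (printed for the granulocyte, monocyte, tissue macrophage and red pulp lists; those of the other lists, apart from Ppbp, are covered by their medians). Further markers (Adgre1, Siglec1, Epb41l3, Treml4, Marco, Cd209b, Sirpa, Cd68, Csf1r, Serpinb2, Lyz1, Ace, Ms4a6c, Cx3cr1, Tlr7, Tlr4, Cd14) were chosen after their values were seen. Members, lists and rules were chosen with earlier results of these data known. Populations of the series beyond these 9, and other times, were not analysed here.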

Additional observations from a re-analysis of the deposited data

How the results depend on the processing

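Alternatives were quantile normalization, log2 of intensity plus 50, the mean of all probe sets of a gene, leaving out dim genes, no mean-variance trend, array weights, only the arrays compared, each array left out and a replicate block. The 8 counts of passing genes stayed within 1.5 times their value under all of these. Leaving out 1 array gave 2568 to 2587 genes for MF minus lymphoid, 1897 to 1938 for DC minus lymphoid and 3941 to 4002 for GN minus lymphoid. Of 2062 values for the 10 genes, 2033 kept their side of the threshold and 29 crossed it. Direction was compared where either fit passed, and 0 of those differences reversed. Differences that passed in neither fit could change sign, as that of Cd163 in DC minus GN did without DC replicate 2. The cause of these crossings was not tested. C1qb among lymphoid populations lost its call under 12 alternatives, with adjusted p of 0.0615 under quantile normalization, 0.0637 with 50 added and between 0.052 and 0.102 without single arrays. In GN minus lymphoid C1qc and Vcam1 passed under quantile normalization (1.04 and 1.07) and with the replicate block (1.12 and 1.20), while C1qb stood at 0.93 with 50 added. The F test of Cd163 fell under 2-fold with 50 added (0.69) and without MF replicate 3 (0.98). Leaving out dim genes kept 12220 genes and 9 of the 10, without Cd163.

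Same-numbered arrays of different populations did not deviate together throughout (r of -0.16 to 0.47 over 18 pairs of populations, 8 of them over 0.1), so the numbers were not taken as pairs. Some lymphoid populations did deviate together, with r of 0.47 for NK and T8, 0.34 for T4 and T8, 0.34 for T8 and Treg and 0.33 for NK and Treg. Calls among lymphoid populations therefore depend on this choice. With the replicate block 2565 genes passed in MF minus lymphoid, 1935 in DC minus lymphoid, 4003 in GN minus lymphoid, 2121 in MF minus DC, 3340 in DC minus GN and 4095 in MF minus GN, 7744 in the F test over 9 populations and 1982 in the F test over 6 lymphoid populations. Axl, Mertk and Vcam1 passed among lymphoid populations with that block (ranges of 1.43, 1.40 and 1.25).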
